A study of Mus musculus with 9 samples.

Results

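The laminin chains were followed in the uterus of *Wnk1d/d* mice, in which the kinase WNK1 had been ablated. A table of FPKM (a transcript level made of sequenced fragments scaled to transcript length and to the size of the library) was searched by gene symbol for 9 chains. These were *Lama1*, *Lama2*, *Lama3*, *Lama4*, *Lama5*, *Lamb1*, *Lamb2*, *Lamb3* and *Lamc1*, and all 9 were found among 31274 entries. *Lamc3*, which encodes a further γ chain, was read beside them because laminin 213 cannot be described without it. RNA was taken from whole uteri of C57BL/6 females on pseudopregnancy day 4.5, the receptive phase, and each mouse gave 1 library. Control mice (*Wnk1f/f*, n = 4) carried floxed *Wnk1* alleles with *loxP* sites around exon 2. *Wnk1d/d* mice (n = 5) carried the same alleles together with a *Cre* expressed from the progesterone receptor locus (*PGRCre/+*), so exon 2 is lost only in cells that have expressed this receptor, and all other cells of the uterus keep WNK1. The *Cre* allele and the deletion occur in the same mice, and their parts cannot be told apart. Pseudopregnancy was induced by vasectomized males, so embryos do not contribute RNA. The labels give no ages, and the methods of the study give only an age range in weeks for the virgin females that were mated.

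Laminins are the cross-shaped glycoproteins of basement membranes, the thin matrix sheets beneath epithelium and around muscle fibers, blood vessels and nerves. Each laminin is a trimer of 1 α, 1 β and 1 γ chain, and it is named by the chain numbers, so that laminin 511 holds the α5, β1 and γ1 chains. The α chain carries the domains that bind integrins and dystroglycan on the cell surface, and β and γ chains join it in a coiled coil before secretion. In the uterus, laminins lie beneath luminal and glandular epithelium, around vessels and myometrial cells, and around stromal cells as they decidualize.

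*Wnk1* had 43.4 to 47.3 FPKM in *Wnk1f/f* and 29.9 to 33.9 FPKM in *Wnk1d/d* libraries, without overlap, and these values cover the whole gene rather than exon 2 alone. Fragment counts were not used and absolute depth is unknown. The worth of 1 fragment, read from 57 low entries, differed between libraries by at most 1.28 times. Only entries whose values differed little between libraries were kept for this, so the ratio cannot exclude a larger difference in depth. The median log2(FPKM + 1) over tested genes was 3.79 to 3.82 in all 9 libraries. *Wnk1f/f* replicate 4 stood apart in 6 hepatocyte markers, with a sum of 157 FPKM against 5.40 to 9.27 FPKM in the other controls. Its sum of 5 leukocyte markers was the highest of all libraries, 334 FPKM against 180 to 218 FPKM in the other controls. Its sum of 8 smooth muscle markers was the lowest, 3375 FPKM against 4907 to 7617 FPKM in the other controls. Calls lost without this library are named or counted beside the results. In *Wnk1d/d* replicate 4 a single entry, no laminin chain, held 70.3% of the summed FPKM, against 6.43% to 13.8% for the top entry of the other libraries, while its median was like theirs. Epithelial, smooth muscle and stromal markers, the defining genes of the uterus, were high in every library.

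Among the 8 chains with a mean above 1 FPKM in at least 1 genotype, *Lama2* and *Lama3* fell and *Lama4*, *Lama5* and *Lamc1* rose in *Wnk1d/d* uteri, while *Lamb1*, *Lamb2* and *Lamb3* did not pass the test (limma on log2(FPKM + 1), adjusted p under 0.05 over 14728 genes). The falls were large, to 0.491 of the control mean for *Lama2* and 0.256 for *Lama3*, and the rises were modest, from 1.25 times for *Lama5* to 1.32 times for *Lama4*. Thus 5 of 8 tested chains passed, where 22.1% of all tested genes did. By direction, 3 rose against 11.1% of all tested genes and 2 fell against 11% of them. The median log2 fold change was -0.01 over the 8 chains and 0.00 over all tested genes. Differentially expressed genes (DEGs), for which mean FPKM also had to differ by 1.5 times or more, included 2 chains, both lower. Of all tested genes 10.3% were DEGs, with 5.09% of tested genes higher and 5.18% lower. Libraries of the genotypes did not overlap for 3 of 8 chains (*Lama2*, *Lama4* and *Lama5*), against 19.9% of tested genes. Without *Wnk1f/f* replicate 4, 2 chains passed (*Lama2* and *Lama3*), and without *Wnk1d/d* replicate 3, 3 chains did.

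**Figure D1:**
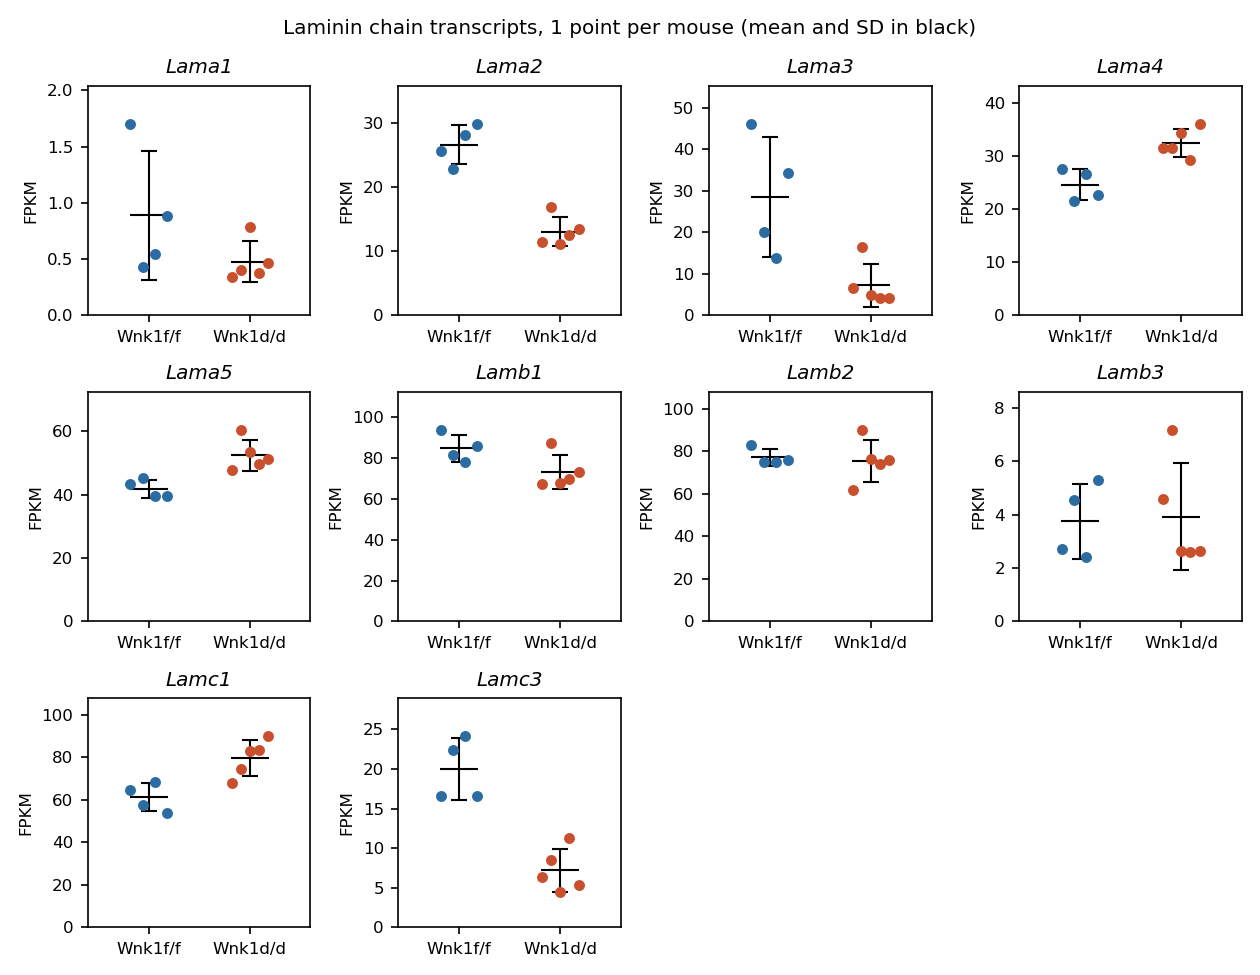
FPKM of each laminin chain (vertical axes, linear from 0) in 4 *Wnk1f/f* and 5 *Wnk1d/d* mice, with 1 point per library and the mean and SD in black. Points of the genotypes are fully apart for *Lama2*, *Lama4*, *Lama5* and *Lamc3*, and *Wnk1d/d* replicate 2 lies above the other *Wnk1d/d* points for *Lama3* and *Lamb3*.

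The α chains were considered first because they decide which receptors a laminin can bind. *Lama2* encodes α2, the chain of the laminins around muscle fibers, nerves and stromal cells, whose loss causes a muscular dystrophy. It lies on the minus strand of chromosome 10 (26980036 to 27619758 on mm10). *Lama2* had 25.6, 22.8, 28.1 and 29.8 FPKM in *Wnk1f/f* replicates 1 to 4 and 11.4, 16.8, 11.1, 12.5 and 13.4 FPKM in *Wnk1d/d* replicates 1 to 5. Every *Wnk1d/d* library lay below every control library, and replicate 2 came nearest to the controls. The means were 26.6 ± 3.03 FPKM (SD, n = 4) and 13.1 ± 2.31 FPKM (SD, n = 5), and *Lama2* fell by 0.98 on the log2 scale (SE 0.12; limma, adjusted p = 0.00257). Leaving out any single library kept the change between -1.07 and -0.92 and past the threshold.

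*Lama3* encodes α3, the chain of the epithelial laminins that anchor hemidesmosomes, and lies on the plus strand of chromosome 18 (12333819 to 12583013). It has 2 annotated coding transcripts, which the table joins into 1 value, so the short and long forms of α3 were not separated. *Lama3* had 46.0, 20.02, 13.8 and 34.2 FPKM in *Wnk1f/f* replicates 1 to 4 and 6.63, 16.4, 4.99, 4.24 and 4.26 FPKM in *Wnk1d/d* replicates 1 to 5. Controls differed among themselves more than 3 times, and *Wnk1d/d* replicate 2 lay above *Wnk1f/f* replicate 3. The means were 28.5 ± 14.4 FPKM (SD, n = 4) and 7.31 ± 5.18 FPKM (SD, n = 5). *Lama3* fell by 1.86 on the log2 scale (SE 0.42; limma, adjusted p = 0.0162), the greatest change among the 9 chains tested here. Without *Wnk1d/d* replicate 2 the change was -2.17, and without *Wnk1f/f* replicate 1 it was -1.59, both past the threshold.

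*Lama4* encodes α4, a short chain known from the basement membranes of blood vessels, smooth muscle and fat, and lies on the plus strand of chromosome 10 (38965515 to 39110188). Its coding sequence spans 5.45 kb, against 9.25 to 11.2 kb for the longest coding transcripts of the other α chains. *Lama4* had 27.6, 21.6, 26.5 and 22.7 FPKM in *Wnk1f/f* replicates 1 to 4 and 31.4, 31.6, 34.2, 29.2 and 36.0 FPKM in *Wnk1d/d* replicates 1 to 5. All *Wnk1d/d* libraries were above all controls, with a gap of less than 2 FPKM between the nearest libraries. *Lama4* rose by 0.39 on the log2 scale (SE 0.09; limma, adjusted p = 0.0171), from 24.6 ± 2.91 FPKM (SD, n = 4) to 32.5 ± 2.64 FPKM (SD, n = 5). Without *Wnk1f/f* replicate 4 the change was 0.36 and no longer passed (limma, adjusted p = 0.0513).

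*Lama5* encodes α5, the most widespread α chain of mature epithelial and endothelial basement membranes, and lies on the minus strand of chromosome 2 (180176373 to 180225859). *Lama5* had 43.5, 45.1, 39.5 and 39.5 FPKM in *Wnk1f/f* replicates 1 to 4 and 47.8, 60.3, 53.4, 49.5 and 51.2 FPKM in *Wnk1d/d* replicates 1 to 5. It was the highest α chain in every *Wnk1d/d* library and in every control except *Wnk1f/f* replicate 1, where *Lama3* was higher. The genotypes did not overlap, and *Lama5* rose by 0.31 on the log2 scale (SE 0.08; limma, adjusted p = 0.0229), from 41.9 ± 2.84 FPKM (SD, n = 4) to 52.4 ± 4.86 FPKM (SD, n = 5). The call was lost without *Wnk1f/f* replicate 3, *Wnk1f/f* replicate 4 or *Wnk1d/d* replicate 3, and in those and the other fits that left out 1 library the change was 0.26 to 0.35.

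*Lama1* encodes α1, the chain of the first embryonic basement membranes, and lies on the plus strand of chromosome 17 (67697259 to 67822647). Its level was 0.430 to 1.70 FPKM in *Wnk1f/f* and 0.340 to 0.790 FPKM in *Wnk1d/d* libraries, with overlap, and neither mean exceeded 1 FPKM, so *Lama1* was outside the test. With no filter on low values its log2 fold change was -0.32 (SE 0.18; limma, adjusted p = 0.264).

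RefSeq promoters (build GRCm38.p6, the assembly called mm10, in windows of 300 bases across the start of a gene) were held for 5 of the 9 members, *Lama2*, *Lama5*, *Lamb1*, *Lamb2* and *Lamb3*. *Lama2*, whose RefSeq start lies inside the GENCODE span given above, and *Lama5* are shown because these are the members with an entry whose transcripts passed the test, in opposite directions. Each is printed 5′ to 3′ along the gene. Capitals mark matches on either strand to GGGCGG (the core of a box bound by SP1), to TATAAA (a common form of the box that sets the start), or to the promoter element CCAAT. They also mark matches to GTAAACA, which forkhead factors such as FOXO bind, and to the element CACCC of Krüppel-like factors. Matches may share letters, as do those of the CACCC pair in *Lama2*.
*Lama2*, chr10:27616893-27617192, minus strand: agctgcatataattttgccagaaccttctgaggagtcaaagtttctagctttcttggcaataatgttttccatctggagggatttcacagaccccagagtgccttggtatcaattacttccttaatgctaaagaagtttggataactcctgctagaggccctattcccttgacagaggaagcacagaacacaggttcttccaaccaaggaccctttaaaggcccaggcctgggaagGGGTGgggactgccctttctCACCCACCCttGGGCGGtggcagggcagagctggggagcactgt
*Lama5*, chr2:180225810-180226109, minus strand: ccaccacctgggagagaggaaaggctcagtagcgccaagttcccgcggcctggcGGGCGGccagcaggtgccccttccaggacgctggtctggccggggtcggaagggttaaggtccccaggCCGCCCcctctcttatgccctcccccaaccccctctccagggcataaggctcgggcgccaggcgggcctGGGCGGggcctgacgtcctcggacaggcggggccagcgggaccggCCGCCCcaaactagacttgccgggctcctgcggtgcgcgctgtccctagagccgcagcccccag

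The *Lama2* promoter held 1 match to GGGCGG and 3 to CACCC. The *Lama5* promoter held 4 matches to GGGCGG and none to CACCC, and 72.7% of its bases were G or C, against 50.3% in *Lama2* and a median of 52.7% over all promoters. Neither window held GTAAACA, which was found in 3.65% of 32851 promoters of the same length. GGGCGG was found in 35.7%, CACCC in 57.5%, CCAAT in 37.4% and TATAAA in 13.6% of them.

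The β chains pair with γ chains inside the trimer, and β1 and β2 replace each other in laminins with the same α chain. *Lamb1* (chromosome 12, 31265234 to 31329644, plus strand) had 77.8 to 93.5 FPKM in *Wnk1f/f* and 67.3 to 87.5 FPKM in *Wnk1d/d* libraries. *Wnk1d/d* replicate 2, at 87.5 FPKM, was the only *Wnk1d/d* library within the control range. The log2 fold change of *Lamb1* was -0.21 (95% interval -0.42 to -0.01; limma, adjusted p = 0.118), and without *Wnk1d/d* replicate 2 it was -0.28 and passed the test (limma, adjusted p = 0.021).

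*Lamb2* (chromosome 9, 108479736 to 108490530, plus strand) encodes β2, a chain of muscle, vessel and kidney basement membranes. It had 77.2 ± 3.97 FPKM (SD, n = 4) in *Wnk1f/f* and 75.5 ± 9.97 FPKM (SD, n = 5) in *Wnk1d/d* uteri. The libraries overlapped, and the interval of the difference ran from -0.26 to 0.18 on the log2 scale (limma, adjusted p = 0.786). *Lamb3* (chromosome 1, 193207699 to 193343878, plus strand) encodes β3, a chain of an epithelial laminin with α3. It was the lowest β chain in every library, with 2.71, 4.56, 2.43 and 5.30 FPKM in *Wnk1f/f* replicates 1 to 4 and 4.60, 7.17, 2.63, 2.59 and 2.65 FPKM in *Wnk1d/d* replicates 1 to 5. The ranges of the genotypes overlapped in large part, and the interval of the difference was wide, -0.63 to 0.66 on the log2 scale (limma, adjusted p = 0.972).

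*Lamc1* encodes γ1, the chain shared by most laminins, and lies on the minus strand of chromosome 1 (153218922 to 153332786). *Lamc1* had 64.8, 57.4, 68.4 and 54.0 FPKM in *Wnk1f/f* replicates 1 to 4 and 67.8, 74.5, 82.9, 83.3 and 90.0 FPKM in *Wnk1d/d* replicates 1 to 5. *Wnk1d/d* replicate 1 fell just below *Wnk1f/f* replicate 3, and the other *Wnk1d/d* libraries were above all controls. *Lamc1* rose by 0.38 on the log2 scale (SE 0.10; limma, adjusted p = 0.0279), from 61.2 ± 6.60 FPKM (SD, n = 4) to 79.7 ± 8.61 FPKM (SD, n = 5). This call was lost without *Wnk1f/f* replicate 2 or 4 and without *Wnk1d/d* replicate 3, 4 or 5, where the highest adjusted p was 0.0775, and the change stayed between 0.32 and 0.43 in all 9 fits that left out 1 library.

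*Lamc3* encodes γ3, a chain of laminin 213 and of some nerve and vessel laminins, and lies on the plus strand of chromosome 2 (31887291 to 31946539). *Lamc3* had 16.6, 22.4, 24.1 and 16.6 FPKM in *Wnk1f/f* replicates 1 to 4 and 6.37, 8.48, 4.46, 11.3 and 5.41 FPKM in *Wnk1d/d* replicates 1 to 5. It fell by 1.39 on the log2 scale (SE 0.23; limma, adjusted p = 0.00586), without overlap. *Lamc3* was a DEG and kept its call in all 9 fits that left out 1 library.

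**Figure D2:**
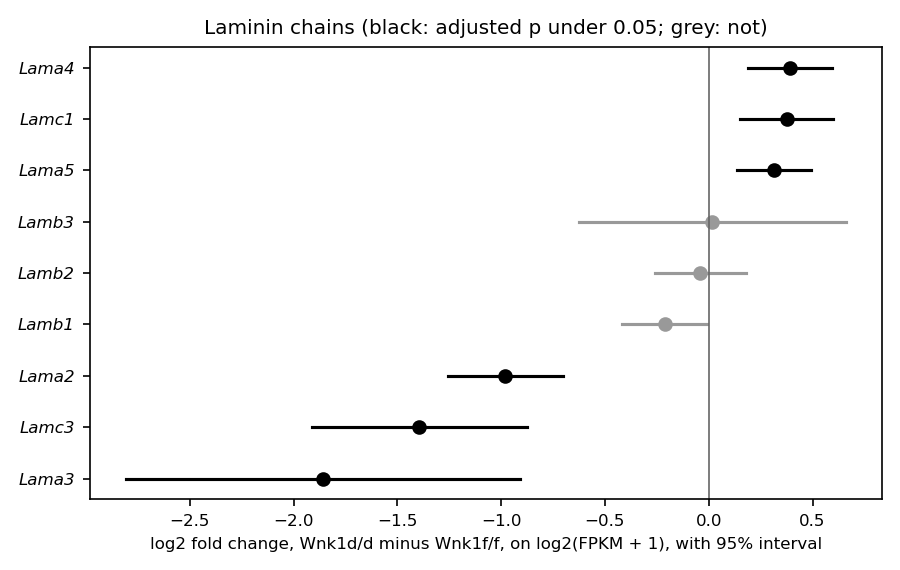
Log2 fold change of each tested laminin chain (horizontal axis, *Wnk1d/d* minus *Wnk1f/f* on log2(FPKM + 1)) with its 95% interval. *Lama4*, *Lamc1* and *Lama5* lie above 0 and *Lama2*, *Lamc3* and *Lama3* below it with an adjusted p under 0.05 (black), while the β chains in grey did not pass.

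Exons of *Lama2*, *Lama3* and *Lamc3* overlap annotated antisense genes on the opposite strand by up to 538, 197 and 382 bases. Whether counting used the strand is not given in the sources used here, so fragments of these short stretches cannot be assigned to one strand. The exons of the other chains met no exon of another gene in GENCODE release M21.

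Because FPKM is a level per length, chains can be set side by side within a library. In *Wnk1f/f* uteri the order by mean FPKM was *Lamb1* (84.7), *Lamb2* (77.2), *Lamc1* (61.2), *Lama5* (41.9), *Lama3* (28.5), *Lama2* (26.6), *Lama4* (24.6), *Lamc3* (19.95), *Lamb3* (3.75) and *Lama1* (0.890). The ranges of *Lama5*, *Lama3*, *Lama2*, *Lama4* and *Lamc3* overlapped from each to the next, as did those of *Lamb1* with *Lamb2*. In *Wnk1d/d* uteri the order was *Lamc1* (79.7), *Lamb2* (75.5), *Lamb1* (73.1), *Lama5* (52.4), *Lama4* (32.5), *Lama2* (13.1), *Lama3* (7.31), *Lamc3* (7.21), *Lamb3* (3.93) and *Lama1* (0.476). There *Lamc1*, *Lamb2* and *Lamb1* overlapped one another in range, *Lama5* and *Lama4* each stood clear of their neighbors, and the ranges of *Lama2*, *Lama3*, *Lamc3* and *Lamb3* overlapped from each to the next.

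The makeup of the α class differed between genotypes. *Lama5* took 30.1% to 41.0% of the summed α chain FPKM in *Wnk1f/f* and 48.0% to 51.7% in *Wnk1d/d* libraries, and *Lama4* took 17.9% to 24.5% and 25.1% to 34.1%. *Lama2* took 17.7% to 25.9% in *Wnk1f/f* and 10.6% to 13.4% in *Wnk1d/d* libraries. These 3 shares did not overlap between genotypes. The share of *Lama3* was 12.7% to 31.9% in *Wnk1f/f* and 4.04% to 13.1% in *Wnk1d/d* libraries, and *Wnk1d/d* replicate 2 was the library that reached into the control range. The 4 shares add to nearly the whole of the class, so they are not separate measurements, and no test was made on them. Summed over the class, α chains had 122 ± 16.9 FPKM (SD, n = 4) in *Wnk1f/f* and 106 ± 11.8 FPKM (SD, n = 5) in *Wnk1d/d* uteri, with overlap.

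The β class kept a nearly even mix. *Lamb1* took 50.1% to 52.1% of its FPKM in *Wnk1f/f* and 46.3% to 50.3% in *Wnk1d/d* libraries, *Lamb2* took 45.5% to 48.3% and 46.2% to 51.9%, and *Lamb3* never exceeded 3.89%. Among γ chains, the ratio of *Lamc1* to *Lamc3* within a library was 2.56 to 3.91 in *Wnk1f/f* and 7.36 to 18.6 in *Wnk1d/d* uteri, without overlap. The ratio of *Lama5* to *Lama2* was 1.33 to 1.98 in *Wnk1f/f* and 3.58 to 4.83 in *Wnk1d/d* uteri.

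**Figure D3:**
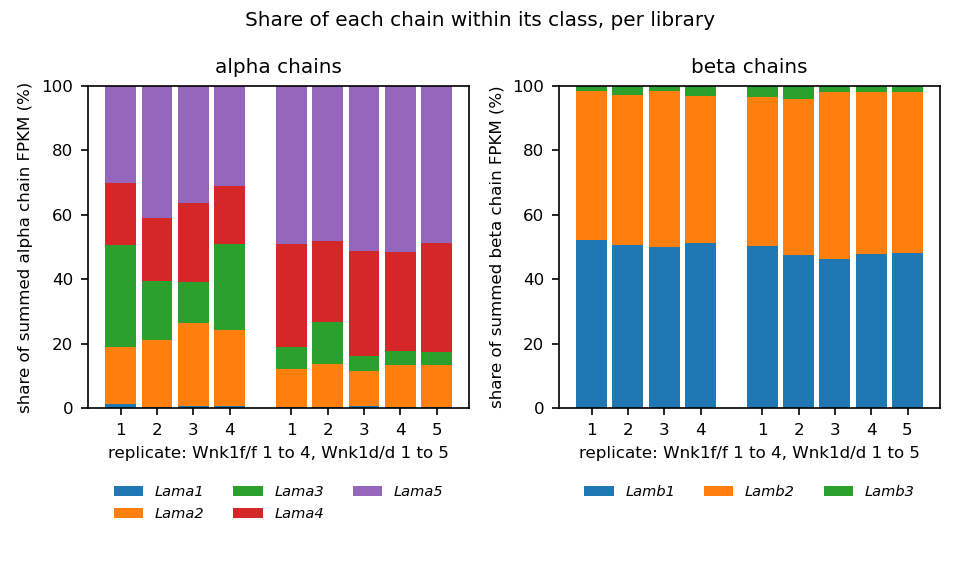
Share of each chain in the summed FPKM of its class (vertical axes, percent) for *Wnk1f/f* replicates 1 to 4 and *Wnk1d/d* replicates 1 to 5. *Lama5* and *Lama4* together fill most of each *Wnk1d/d* α bar, and the β bars are nearly evenly split between *Lamb1* and *Lamb2*.

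Chain levels were then arranged by a set of known trimers, taking the chain with the lowest FPKM as the one in shortest supply. The set was not complete, with laminin 213 as its only trimer with γ3 and none with β3. In laminins 211, 221, 311, 321, 411, 421, 511 and 521 the α chain was the lowest in every library of both genotypes, so the β1, β2 and γ1 transcripts each exceeded any 1 α transcript taken alone. The α chains share γ1, however, and their summed FPKM, 122 in *Wnk1f/f* and 106 in *Wnk1d/d* uteri in mean, was above that of *Lamc1* (61.2 and 79.7) in every library. By the mean of the lowest chain, laminins 511 and 521 came first in both genotypes, with 41.9 FPKM of *Lama5* in *Wnk1f/f* and 52.4 FPKM in *Wnk1d/d* uteri. In controls the ranges of *Lama5* and *Lama3* overlapped, and in *Wnk1f/f* replicate 1 *Lama3* (46.0 FPKM) was above *Lama5* (43.5 FPKM). Trimers with the same α chain share its transcripts, so each such level is for these trimers together. In *Wnk1f/f* uteri the trimers with α3, α2 and α4 followed at 28.5, 26.6 and 24.6 FPKM, means whose library ranges overlapped. In *Wnk1d/d* uteri the trimers with α4 came next at 32.5 FPKM, and those with α2 and α3 were at 13.1 and 7.31 FPKM.

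*Lamb3* stood far below the other β chains, with a mean of 3.75 FPKM in *Wnk1f/f* and 3.93 FPKM in *Wnk1d/d* uteri and the wide interval given above. It was also below *Lama3*, its α partner, in every library. The ratio of *Lama3* to *Lamb3* was 4.39 to 17.0 in *Wnk1f/f* and 1.44 to 2.29 in *Wnk1d/d* libraries, without overlap. Laminin 213 was limited by *Lamc3* in every library of both genotypes, at 19.95 FPKM and 7.21 FPKM, and laminin 111 by *Lama1*. Transcripts of whole uterus do not show which chains meet in 1 cell, and translation, assembly and secretion were not measured.

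Within genotypes, chains that can share a trimer varied together to different degrees. Deviations of log2(FPKM + 1) from the genotype mean, over all 9 libraries, gave Pearson r of 0.87 for *Lama3* with *Lamb1*, 0.79 for *Lama5* with *Lamb2*, 0.67 for *Lama3* with *Lamb3* and 0.11 for *Lama4* with *Lamb1*. The remaining pairs of these α chains with *Lamb1* or *Lamb2* gave 0.71 for *Lama5* with *Lamb1* and 0.23 for *Lama4* with *Lamb2*. They also gave 0.55 for *Lama3* with *Lamb2*, and *Lama2* gave 0.69 with *Lamb1* and 0.63 with *Lamb2*. With *Lamc1*, r was 0.66 for *Lama4*, -0.01 for *Lama5*, -0.02 for *Lama2* and -0.46 for *Lama3*. Of the β chains that join γ1, *Lamb1* gave -0.09 and *Lamb2* 0.31 with *Lamc1*. *Lamb1* and *Lamb2*, which take the same place in a trimer, gave 0.82. These are descriptions over few libraries that share RNA and depth across genes. *Wnk1d/d* replicate 2 alone was the highest *Wnk1d/d* library for *Lama2*, *Lama3*, *Lama5*, *Lamb1*, *Lamb2* and *Lamb3*, and its weight in these values was not tested. Over all tested genes, the closest patterns to *Lama2* were those of *Kctd12b* (r = 0.98), *Zfp446* (0.97) and *Sptan1* (0.97), and those closest to *Lama3* were *Nceh1* (0.98), *C2cd4a* (0.97) and *Atg9b* (0.97). For *Lama4* they were *Gria3* (0.94), *Flrt1* (0.92) and *Id3* (0.92), and for *Lama5* they were *Plekha7* (0.95), *Pigt* (0.94) and *Zfp747* (0.92). *Lamb1* was closest to B230206H07Rik (0.97), *Snx21* (0.96) and *P2rx2* (0.96), *Lamb2* to *Atxn2l* (0.97), *Hdac7* (0.97) and *Slc22a17* (0.96), and *Lamb3* to *Rassf10* (0.98), *Pdxk* (0.98) and *Gmip* (0.97). *Lamc1* was closest to *Fkbp9* (0.96), *Tbxa2r* (0.95) and *Gm5643* (0.95), and *Lamc3* to 6720416L17Rik (0.94), *Ctc1* (0.93) and *Ntm* (0.92). Values as high are found for some gene among many when only 9 libraries are compared.

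Laminins are held in the basement membrane by a collagen IV network and by linkers, and 15 genes of these partners were tested. Of these, 2 rose, 4 fell and 9 did not pass, where 11.1% of all tested genes rose and 11% fell. *Tinagl1*, a matrix glycoprotein that binds laminin, rose from 32.4 to 60.1 FPKM (log2 fold change 0.87, SE 0.10; limma, adjusted p = 0.00193), and *Hspg2*, the heparan sulfate proteoglycan perlecan, rose from 80.1 to 120 FPKM (0.57, SE 0.10; limma, adjusted p = 0.0069). *Hspg2* was 90.7, 73.3, 77.6 and 78.7 FPKM in *Wnk1f/f* and 99.6, 111, 128, 129 and 130 FPKM in *Wnk1d/d* libraries, without overlap. *Nid1*, nidogen 1, which links the laminin γ1 chain to collagen IV, fell from 124 to 89.6 FPKM (log2 fold change -0.46, SE 0.07; limma, adjusted p = 0.0055). Its libraries had 116, 116, 126 and 137 FPKM in *Wnk1f/f* and 83.1, 96.6, 85.7, 88.9 and 93.7 FPKM in *Wnk1d/d* uteri, without overlap.

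Falls were also found for *Col18a1*, the precursor of endostatin (141 to 77.4 FPKM; log2 fold change -0.89, SE 0.17; limma, adjusted p = 0.00961), for *Col4a6*, a collagen IV chain of smooth muscle basement membranes (38.1 to 22.9 FPKM; -0.74, SE 0.16; limma, adjusted p = 0.0136), and for *Ntn4*, a netrin that binds laminin γ chains (8.11 to 4.11 FPKM; -0.84, SE 0.26; limma, adjusted p = 0.0452). The call of *Ntn4* was lost in 7 of the 9 fits that left out 1 library, those without *Wnk1f/f* replicate 1, 2 or 4 or *Wnk1d/d* replicate 1, 3, 4 or 5. The main collagen IV chains did not pass, with 172 and 209 FPKM for *Col4a1* (limma, adjusted p = 0.106) and 110 and 129 FPKM for *Col4a2* (limma, adjusted p = 0.224) in *Wnk1f/f* and *Wnk1d/d* uteri, and both passed without *Wnk1d/d* replicate 1. *Nid2* was 7.63 and 5.80 FPKM (limma, adjusted p = 0.0899) and *Agrn*, agrin, was 89.0 and 73.2 FPKM (limma, adjusted p = 0.265). Without *Wnk1d/d* replicate 2, 8 of the 15 genes fell, and without *Wnk1d/d* replicate 1, 4 rose. The median log2 fold change of the 15 was -0.31.

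Laminins are bound at the cell surface by integrins with β1 or β4 subunits, dystroglycan, the Lutheran antigen and syndecans. Of 11 genes of these receptors, with the tetraspanin *Cd151* counted among them as an integrin partner, 10 were tested. Of these, 4 rose, 1 fell and 5 did not pass, where 11.1% of all tested genes rose and 11% fell. *Itga6* and *Itgb4* encode the subunits of integrin α6β4, which ties epithelial laminin to hemidesmosomes, and they moved apart. *Itga6* had 17.5, 18.5, 19.1 and 19.5 FPKM in *Wnk1f/f* and 31.3, 30.4, 29.0, 19.8 and 21.8 FPKM in *Wnk1d/d* libraries, a rise of 0.46 on the log2 scale (SE 0.14; limma, adjusted p = 0.0387). *Wnk1d/d* replicates 4 and 5 were close to the controls. *Itgb4* had 50.3, 65.4, 42.4 and 44.8 FPKM in *Wnk1f/f* and 38.4, 34.2, 35.0, 33.0 and 35.4 FPKM in *Wnk1d/d* libraries, without overlap, and fell by 0.50 on the log2 scale (SE 0.12; limma, adjusted p = 0.0179).

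*Itgb1*, the subunit shared by the laminin-binding integrins α3β1, α6β1 and α7β1, rose from 173 to 233 FPKM (log2 fold change 0.43, SE 0.12; limma, adjusted p = 0.0327). *Cd151*, a tetraspanin partner of these integrins, rose from 91.1 to 122 FPKM (0.42, SE 0.09; limma, adjusted p = 0.015), and *Sdc1*, syndecan 1, rose from 31.5 to 41.3 FPKM (0.38, SE 0.10; limma, adjusted p = 0.0285). *Itga3* had 20.4 FPKM in both genotypes (limma, adjusted p = 0.985). *Itga7*, the muscle laminin receptor, was 10.8 and 17.7 FPKM (limma, adjusted p = 0.0724) and passed without *Wnk1d/d* replicate 2. Dystroglycan, *Dag1*, was 39.9 and 43.6 FPKM (limma, adjusted p = 0.165), and *Bcam*, the Lutheran antigen that binds laminin α5, was 91.1 and 109 FPKM without overlap and did not pass (limma, adjusted p = 0.141).

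The receptor count depended on processing and on single libraries. With quantile normalization 2 rose, as *Itgb1* and *Sdc1* lost their calls, and with no filter on low values 3 rose, as *Itga6* lost its call. Without *Wnk1f/f* replicate 1, 3 or 4 the number that rose was 2, and without *Wnk1f/f* replicate 2 or *Wnk1d/d* replicate 1 or 3 it was 1. *Itga6* lost its call without *Wnk1f/f* replicate 1, 2, 3 or 4 or *Wnk1d/d* replicate 1, 2 or 3, *Itgb1* without *Wnk1f/f* replicate 2 or 4 or *Wnk1d/d* replicate 1, 3, 4 or 5, and *Sdc1* without *Wnk1f/f* replicate 1, 2 or 3 or *Wnk1d/d* replicate 1 or 3. *Cd151* and *Itgb4* kept theirs in all 9 of these fits. Of 8 enzymes tested that build the laminin-binding glycan of dystroglycan, 1 rose, where 11.1% of all tested genes did. It was *Pomgnt1* (33.9 to 42.0 FPKM; limma, adjusted p = 0.0492), and its call held in only 1 of these 9 fits, that without *Wnk1d/d* replicate 2. Of 5 hemidesmosome genes tested, 3 are the receptor genes *Itga6*, *Itgb4* and *Cd151* and the other two, *Plec* and *Dst*, did not pass. *Col17a1*, the hemidesmosomal collagen, had 0.370 and 0.306 FPKM and was not tested.

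**Figure D4:**
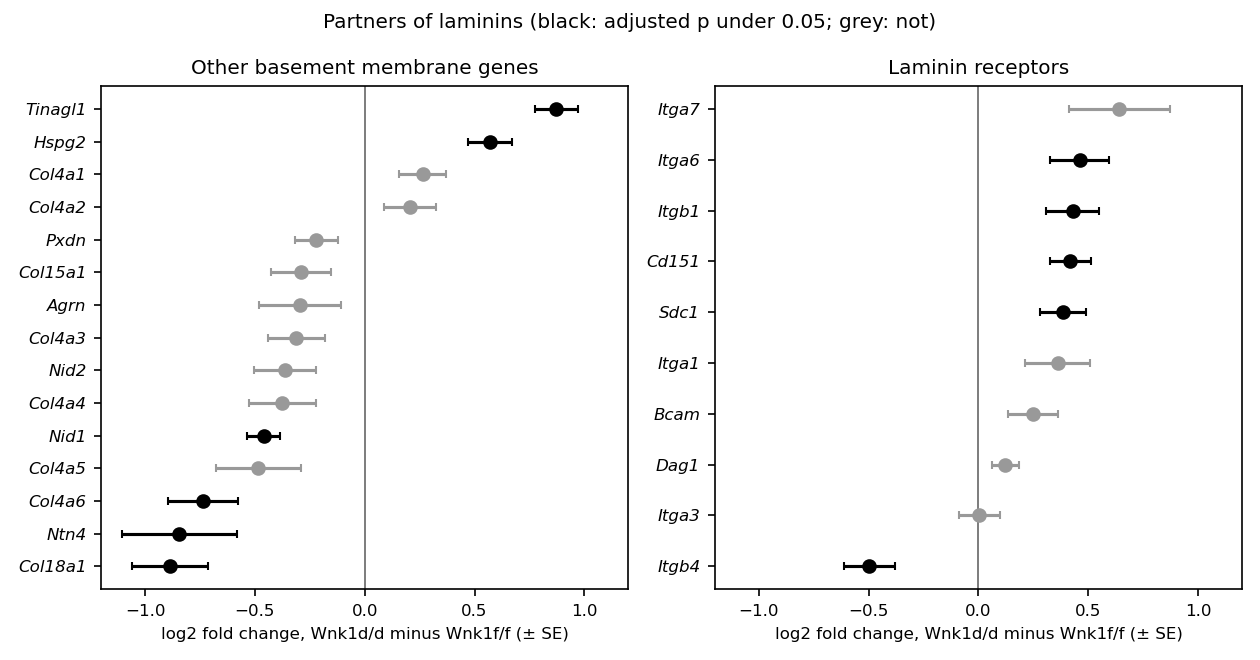
Log2 fold change (horizontal axes, *Wnk1d/d* minus *Wnk1f/f*, ± SE) of tested basement membrane genes other than laminins, left, and of tested laminin receptors, right. *Tinagl1* and *Hspg2* lie to the right and *Nid1*, *Col4a6*, *Ntn4* and *Col18a1* to the left in black (adjusted p under 0.05), and *Itgb4* is the only receptor in black to the left.

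Because the samples are whole uteri, fewer cells of a type and less RNA per cell cannot be told apart, and marker levels are set here beside the chains. All 8 smooth muscle markers rose, among them *Actg2* from 619 to 2378 FPKM and *Acta2* from 1117 to 2451 FPKM, with a sum of 3375 to 7617 FPKM in *Wnk1f/f* and 8587 to 15907 FPKM in *Wnk1d/d* libraries, without overlap. Their count of passing genes was 5 without *Wnk1f/f* replicate 2 or 4 or *Wnk1d/d* replicate 3, 4 or 5. This increase stood beside higher *Lama4*, *Lamc1* and *Hspg2* and lower *Lama2* and *Col4a6*, genes that smooth muscle is known to make. Of 8 endothelial markers 7 fell, among them *Vwf* from 40.7 to 19.4 FPKM and *Cdh5* from 87.8 to 44.5 FPKM, with a sum of 435 to 471 FPKM in *Wnk1f/f* and 180 to 355 FPKM in *Wnk1d/d* libraries, beside higher *Lama4* and *Lama5*. Of these, 5 fell without *Wnk1f/f* replicate 1, 2 or 4 or *Wnk1d/d* replicate 3. Of 6 pericyte markers 5 fell and 1, *Cspg4*, rose, with a sum of 139 to 169 FPKM and 95.6 to 118 FPKM. Without *Wnk1f/f* replicate 3 or 4 or *Wnk1d/d* replicate 3, 3 fell and none rose (limma), and *Cspg4* also lost its call without *Wnk1f/f* replicate 2 or *Wnk1d/d* replicate 4 or 5.

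Of 8 epithelial markers 2 rose (*Krt7* and *Cldn7*) and 6 did not pass, and their sum of 1102 to 1637 FPKM in *Wnk1f/f* overlapped that of 1238 to 1859 FPKM in *Wnk1d/d* libraries. Neither rise held without *Wnk1f/f* replicate 1 or *Wnk1d/d* replicate 1 or 3, with quantile normalization, with library weights or with no filter on low values, and at most 1 held without *Wnk1f/f* replicate 2, 3 or 4 or *Wnk1d/d* replicate 2 or 4. The fall of *Lama3* and *Itgb4*, both genes of epithelium, thus stood beside an epithelial marker sum that overlapped between genotypes. Stromal markers were divided, with 4 that rose (*Col1a1*, *Col1a2*, *Col3a1* and *Lum*) and 3 that fell (*Pdgfra*, *Hand2* and *Hoxa11*) of 8, beside the fall of *Lama2*. The calls of *Col3a1* and *Hand2* were lost without *Wnk1f/f* replicate 2 or 4 or *Wnk1d/d* replicate 3 or 5, that of *Col3a1* also without *Wnk1d/d* replicate 1 and that of *Hand2* without *Wnk1f/f* replicate 1. Their sum was 2090 to 2706 FPKM in *Wnk1f/f* and 2774 to 3534 FPKM in *Wnk1d/d* libraries. None of the markers of these 5 cell types was at 0 in any library. Their part in the chain levels was not tested.

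Other tissues that carry laminins were checked as well. Of 5 mesothelial markers *Lrrn4* rose and *Wt1*, which the stroma also expresses, fell. *Lrrn4* lost its call without *Wnk1f/f* replicate 2, 3 or 4 or *Wnk1d/d* replicate 3 or 5, and *Wt1* lost it without *Wnk1f/f* replicate 1 or 4. The remaining markers did not pass, with ratios of mean FPKM of 2.70 for *Msln* (without overlap; limma, adjusted p = 0.0503), 1.96 for *Upk3b* and 1.89 for *Upk1b*. Of 4 skeletal muscle genes tested, 3 rose (*Acta1*, *Ckm* and *Tnnt3*, of which *Ckm* did not pass without *Wnk1f/f* replicate 4), while *Myh4*, specific to fast fibers, was at most 0.005 FPKM in mean. Adipocyte markers summed to at most 0.280 FPKM, and *Lep* was listed at 0 in all libraries. None of 5 leukocyte and none of 6 liver markers passed by limma, and in each list 0 had an unadjusted p under 0.05.

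**Figure D5:**
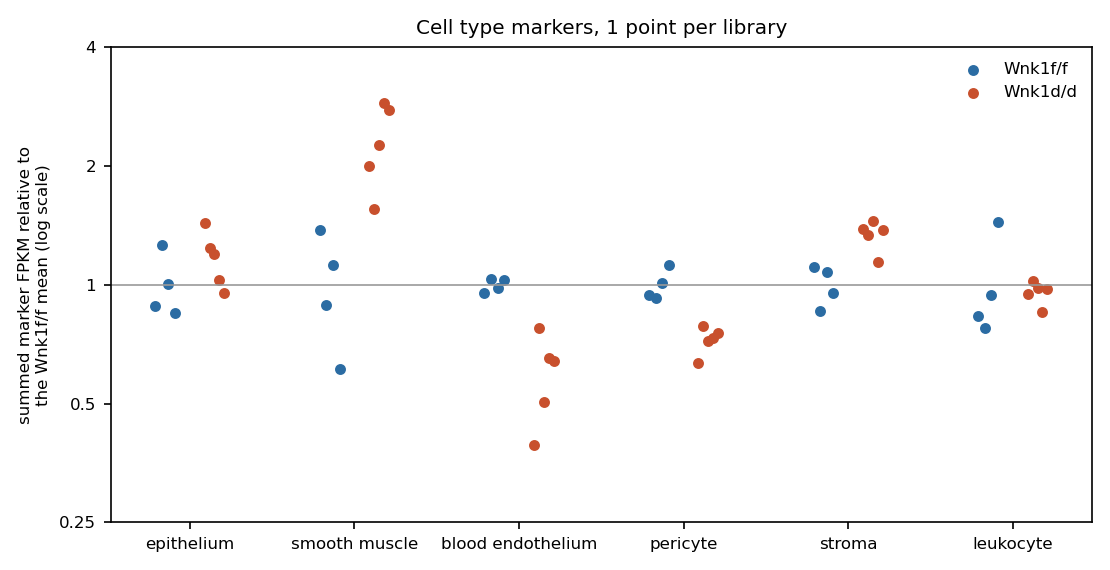
Summed FPKM of cell type markers relative to the *Wnk1f/f* mean (vertical axis, log scale), with 1 point per library. *Wnk1d/d* points lie above all *Wnk1f/f* points for smooth muscle and stroma and below them for blood endothelium and pericytes, and the genotypes overlap for epithelium and leukocytes.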

How the data were processed

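Whole-uterus RNA of 4 *Wnk1f/f* and 5 *Wnk1d/d* mice was sequenced by the authors as paired-end TruSeq libraries, 1 per mouse, and aligned to mm10. The submitters' processing notes name TopHat2 2.0.4 and Cufflinks 2.0.2, and the deposited values are FPKM per gene. The gene annotation and the use of strand are not given in the sources used here. FPKM hold no counts, so no count model was used. Depth was compared only through the worth of 1 fragment in low entries whose values differed little between libraries.

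Genes with a mean above 1 FPKM in at least 1 genotype were compared without pairing by limma 3.58.1 in R 4.3.3 on log2(FPKM + 1), with an intensity trend and Benjamini-Hochberg adjustment over 14728 genes. Fold changes on this scale understate those of low genes. DEGs also differed in mean FPKM by 1.5 times or more. Replicates are separate mice.

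Named were all members, *Lamc3*, *Wnk1*, list genes past the threshold (at most 6 per list), the usual defining receptors and partners, and per chain the 3 tested genes with the highest within-genotype r. *Plec*, *Dst*, *Col17a1*, *Myh4*, *Lep*, *Msln*, *Upk3b* and *Upk1b* were named after their values were seen. Some genes and a marker list are not reported here. The members, lists and alternatives were chosen with earlier results of these data known. Gene positions are from GENCODE M21 on mm10, promoters from RefSeq on GRCm38.p6. Alternatives changed the pseudocount, filter, scaling, trend, weights, pairing and libraries, 1 at a time, except that 1 alternative left out 2 libraries together.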

Additional observations from a re-analysis of the deposited data

Results flagged for a closer look

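In 3 of 20 groups of 4 or 5 libraries, 1 library lay far from the rest of its group by Dixon's criterion, which chance meets in about 1 in 20 groups. *Lama3* was 16.4 FPKM in *Wnk1d/d* replicate 2, and its gap to the next library was 0.804 of the range of the group. *Lamb2* was 83.1 FPKM in *Wnk1f/f* replicate 1, with a gap of 0.857 of the range. *Lama1* was 0.79 FPKM in *Wnk1d/d* replicate 3, with a gap of 0.711 of the range, at a level below 1 FPKM. The cause of these values was not tested.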

How the results depend on the processing

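With the replicate number as a block (replicate block) in limma, 0 of the 8 member chains (5 at an unadjusted p under 0.05), 220 of all tested genes and 218 DEGs passed, but same-numbered mice did not deviate together (correlations of -0.27 to 0.02), so the numbers give no pairing. *Lamc3* also lost its call under the block. Leaving out 1 library gave 2 to 6 chains, 1739 to 4216 genes and 1019 to 1870 DEGs. The genes numbered 1739 without *Wnk1f/f* replicate 4, 1800 without *Wnk1d/d* replicate 3, 2051 without *Wnk1d/d* replicate 5, 4216 without *Wnk1d/d* replicate 2 and 3249 with all libraries. A ratio of at least 2 in place of 1.5 left 550 DEGs. The difference of *Lamb2* was -0.105 to 0.0280 on the log2 scale and that of *Lamb3* -0.186 to 0.169 when 1 library was left out. *Lamb3* was -0.0935 with library weights and -0.0339 with both *Wnk1f/f* replicate 4 and *Wnk1d/d* replicate 2 left out, an alternative chosen after seeing the data. In that alternative 4 chains and 3014 of all tested genes passed. *Lama5* (limma, adjusted p = 0.0507) and *Lamc1* (limma, adjusted p = 0.0624) lost their calls there, and *Lamb1* gained one (limma, adjusted p = 0.0466). Quantile normalization lost the call of *Lamc1*. The cause was not tested. Scaling moved the median of all genes by at most 0.01 on the log2 scale, so that median does not show the shifts of single chains. FPKM without counts give no limit for low chains such as *Lama1*.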
